A study of Danio rerio with 8 samples.

Results

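Collagen genes were followed in whole zebrafish larvae of the TLEK strain, 5 days after fertilization, by polyA RNA sequencing of 4 wild-type libraries and 4 libraries from larvae with a nonsense mutation in both copies of upf1. This gene encodes the RNA helicase at the centre of nonsense-mediated decay, which removes transcripts with premature stop codons, and the experiment was designed around lymphocyte development. The labels give neither the number of larvae nor the clutch behind a library, and p-values therefore reflect only how these libraries vary, which may be technical. Of 31953 genes in the table of gene counts, 62 had a symbol with the letters of a collagen chain (col, a number, a, a number). Of these, col4a3bpa and col4a3bpb are named for a protein that binds collagen IV and encode ceramide transfer proteins, so they are given apart, and 60 genes were collagens. The 60 include 8 symbols that stand for a pair of gene entries each, 16 entries in all. Such entries, and close paralogs generally, are uncertain because reads could have been split between them, and they are named with their identifier where needed.

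Collagens are secreted proteins whose chains carry glycine at regular steps and wind around each other into a rigid helix. Types I, II, V and XI build the striated fibrils of skin, bone and cartilage, type IV builds the sheet-like network of basement membranes, and the FACIT group (fibril-associated collagens) decorates fibrils. Other classes anchor the epidermis to the dermis, span the cell membrane or sit at the basement membrane zone. Chains are hydroxylated and folded in the endoplasmic reticulum with dedicated enzymes and the chaperone Hsp47, then trimmed and crosslinked outside the cell. In a 5-day-old larva they come mainly from cartilage, notochord sheath, epidermis, fin fold, early bone and connective tissue.

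Levels are given as CPM (read counts relative to library size, after scaling by the trimmed mean of M-values), and CPM of different genes are not comparable because they are not divided by transcript length. Gene counts summed to between 75335048 and 96104507 per library. The upf1 mRNA itself was higher in mutants, at 285 ± 7.51 against 129 ± 4.35 CPM (SD, n = 4 each), and because a nonsense mutation can leave an mRNA in place, the level is no check of the labels. The 9 genes used to check the whole-body label, among them elavl3 of neurons, mylpfa of fast muscle, krt4 of skin and myl7 of heart, were all detected. Changes were tested with edgeR's quasi-likelihood test over 23680 genes with Benjamini-Hochberg adjustment at 0.05. All 60 collagens were among the genes tested. Because whole larvae were used, fewer cells of a type and less RNA per cell cannot be told apart.

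Libraries of a genotype differed in their collagen levels, and mutant replicate 2 lay furthest from the others. Mutant replicate 2 was the lowest of the 4 mutants for 39 of the 60 collagens (65%), against 28.8% of all genes tested. The summed collagen level was 12231 CPM there and 17676, 18359 and 16204 CPM in mutant replicates 1, 3 and 4. In the wild types it was 19247, 19633, 19274 and 20487 CPM in replicates 1 to 4. All 4 mutants thus lay below all 4 wild types in summed level after scaling, and mutant replicate 2 lay furthest below. The scaling factors, by which CPM are divided, were 1.019 to 1.106 in mutants and 0.893 to 0.977 in wild types. Scaling therefore lowered every mutant sum and raised every wild-type sum, and the full separation of the genotypes depends on it. Such a sum is led by its most abundant genes and does not describe collagens in general. Among these are the 3 of type I collagen, with means between 1468 and 3793 CPM, none of which was called by edgeR (adjusted p of at least 0.123). Wild type replicate 2 was the lowest wild type for 34 of 60 collagens, against 32.8% of all genes tested, by a median of only -0.15 on the log2 scale from the mean of the other 3. The corresponding medians were 0.11, -0.51, 0.36 and -0.15 for mutant replicates 1 to 4. Mutant replicate 3 was the lowest mutant for 0 of 60 collagens, against 23.3% of all genes tested. Mutant replicate 2 stood apart for some genes outside collagens as well, but its median over all genes tested was only -0.0035 on that scale. The pancreatic digestive enzyme gene try, from the whole-body check, was at 52.8 CPM there and at 1039, 1184 and 1375 CPM in mutant replicates 1, 3 and 4, with wild types between 1957 and 2949 CPM. This was the most extreme of the 9 check genes. Mutant replicate 2 was the lowest mutant for 5 of them and above the mean of the other 3 mutants for 3 (elavl3, fabp10a and myl7). Results are therefore also given without mutant replicate 2. Because it was picked out from these same values, fits without it are a description and no independent test.

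**Figure D1:**
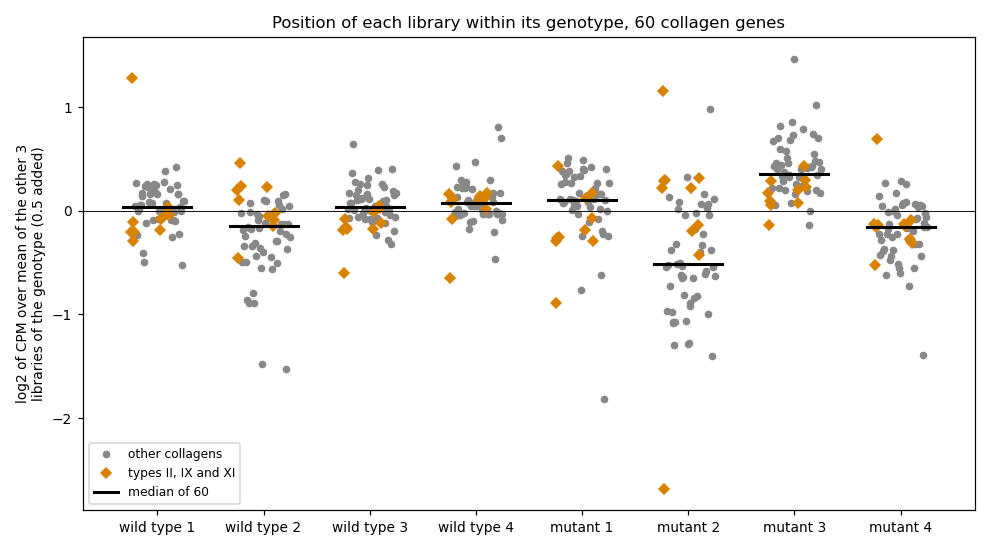
Each point is a collagen gene, and the vertical axis is the log2 of its CPM in 1 library over the mean of the other 3 libraries of the same genotype (0.5 CPM added to both). The median of the 60 genes (black line) is lowest in mutant replicate 2, at -0.51, where the type II, IX and XI chains (diamonds) have a median of 0.22.

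Among the collagens, 2 were higher and 4 lower in mutants, and 54 did not pass. Of all genes tested, 9.12% were called higher and 5.16% lower (14.3% in either direction). The share of collagens called higher was 3.33%, below that of all genes. The share of collagens called lower was 6.67%, slightly above the 5.16%. Those higher were both paralogs of type XXVII collagen, col27a1a and col27a1b. Those lower were 1 of 2 entries for col19a1, col11a1a, col15a1b and 1 of 2 entries for col18a1. The log2 fold change was below 0 for 42 of 60 collagens (70%) and for 50.8% of all genes tested, and the median was -0.19 for collagens and -0.0074 for all genes tested. Without mutant replicate 2, the median over collagens was -0.11, 4 collagens were higher and 3 lower. In that fit 8.04% of all genes tested were called higher and 4.62% lower. All 4 mutants lay above all 4 wild types for 3 collagens and below them for 9, against 12.4% and 8.71% of all genes tested (21.2% in either direction).

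**Figure D2:**
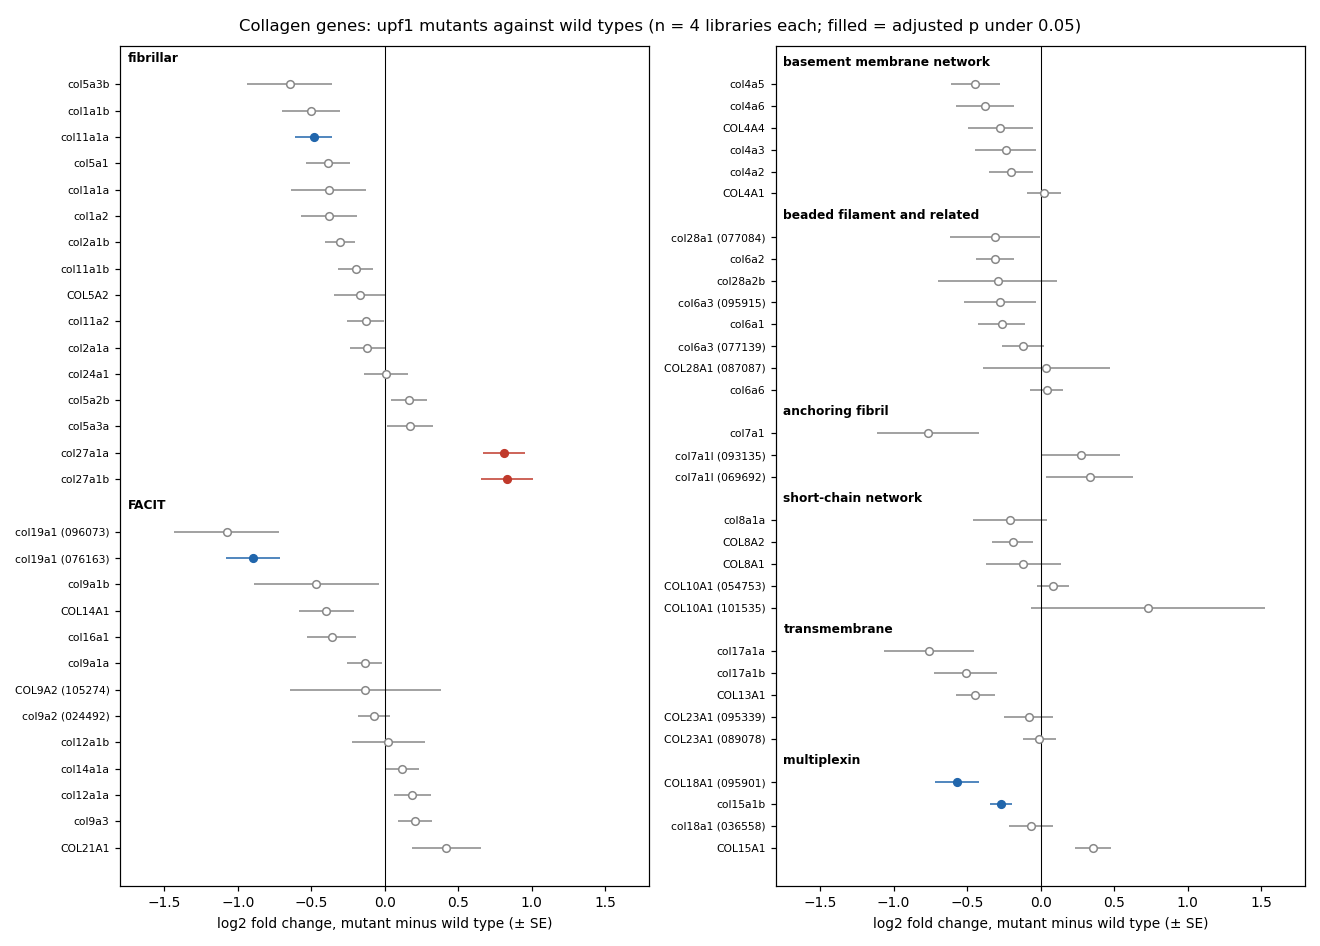
Log2 fold change of mutants over wild types with its standard error for the 60 collagen genes, grouped by structural class, where filled points passed the adjusted threshold. The 2 type XXVII genes stand at 0.81 and 0.83, and 42 of the 60 points lie below 0.

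The type XXVII chains form thin fibrils in cartilage and in the notochord sheath. Expression of col27a1a (ENSDARG00000101258) was 35.8, 33.1, 35.3 and 23.6 CPM in mutant replicates 1 to 4 and 20.3, 15.5, 19.1 and 17.9 CPM in wild type replicates 1 to 4. Its lowest mutant lay above its highest wild type (log2 fold change 0.81, SE 0.14, adjusted p = 0.00521). Expression of col27a1b (ENSDARG00000099930) was 18.4, 14.05, 20.98 and 14.2 CPM in mutants and 9.03, 7.11, 10.7 and 11.1 CPM in wild types. The genotypes did not overlap here either (log2 fold change 0.83, SE 0.18, adjusted p = 0.0139). Both calls were kept in all 8 fits that left out 1 library. The adjusted p then reached at most 0.0192 for col27a1a and 0.0414 for col27a1b.

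Type XIX collagen is a FACIT chain that in mouse is made by a subset of neurons. The first col19a1 entry (ENSDARG00000076163) was at 12.5, 8.69, 13.3 and 8.65 CPM in mutants and at 20.7, 15.3, 24.2 and 20.2 CPM in wild types. All mutants lay below all wild types (log2 fold change -0.90, SE 0.18, adjusted p = 0.0116), and the call was kept without any 1 library (adjusted p up to 0.0359). The second entry (ENSDARG00000096073) had a log2 fold change of -1.07 (SE 0.36), did not pass (adjusted p = 0.0786) and overlapped between genotypes, at 3.18, 1.297, 3.85 and 2.04 against 5.65, 3.20, 7.67 and 5.34 CPM. DESeq2 called both entries lower. The sources used here do not say whether both entries are pieces of 1 gene.

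The other 3 lower collagens passed less firmly. Over all genes tested, 1223 were called lower with all libraries. Without 1 library it was 675 to 1105, except 1279 without wild type replicate 2. The chain gene col11a1a (ENSDARG00000026165), whose product limits the width of cartilage fibrils, was at 621, 599, 799 and 558 CPM in mutants and 886, 835, 922 and 961 CPM in wild types. No mutant reached the lowest wild type (log2 fold change -0.48, SE 0.12, adjusted p = 0.0292). Leaving out mutant replicate 1, 2 or 4, or wild type replicate 1, 3 or 4, ended the call (adjusted p up to 0.0816). The basement membrane zone collagen gene col15a1b (ENSDARG00000061848) was at 50.1, 56.9, 52.2 and 50.2 CPM in mutants and 60.4, 65.2, 59.5 and 67.7 CPM in wild types. The difference was small and without overlap (log2 fold change -0.27, SE 0.075, adjusted p = 0.0391), and leaving out any 1 library other than mutant replicate 2 ended the call (adjusted p up to 0.109). COL18A1 (ENSDARG00000095901), a type XVIII chain whose C-terminal fragment is endostatin, was at 18.6, 13.2, 23.003 and 18.8 CPM in mutants and 25.9, 25.5, 27.9 and 29.8 CPM in wild types. All mutants were again lower (log2 fold change -0.57, SE 0.15, adjusted p = 0.0323). Leaving out mutant replicate 1 or 4, or wild type replicate 1, 3 or 4, ended this call as well (adjusted p up to 0.0869). COL15A1 (ENSDARG00000074639), the other type XV entry, went the other way without passing, at 10.8, 8.29, 8.69 and 9.74 CPM in mutants and 6.35, 7.72, 7.29 and 8.01 CPM in wild types (0.35, SE 0.12, adjusted p = 0.0851). Its 4 mutants lay above its 4 wild types. The other type XVIII entry, col18a1 (ENSDARG00000036558), was at 236 ± 51.8 against 247 ± 17.5 CPM (SD, n = 4 each) and did not pass (adjusted p = 0.815).

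**Figure D3:**
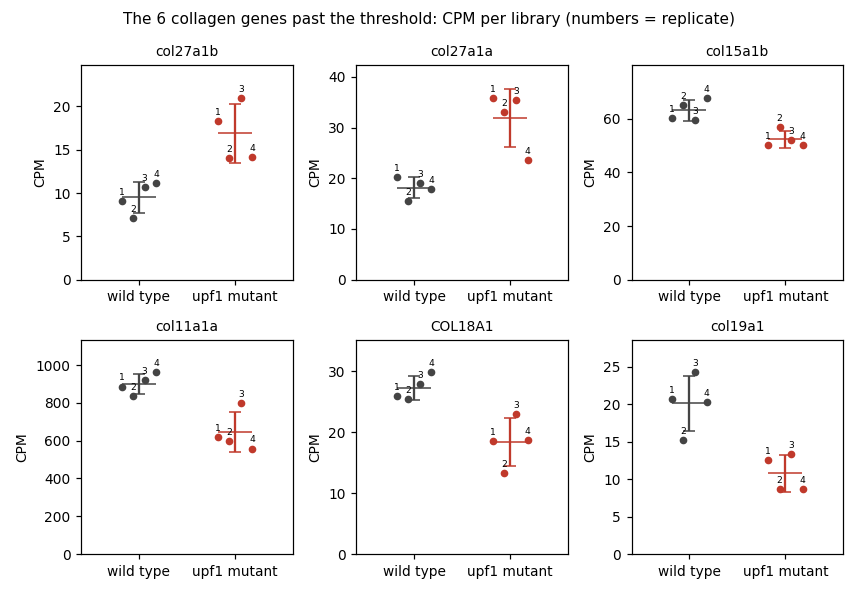
CPM of the 6 collagen genes past the threshold in each library (points, with the replicate number), with mean and SD (n = 4). In every panel the 4 mutants and the 4 wild types do not overlap, with col27a1a and col27a1b higher and the other 4 lower in mutants.

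Among the 16 fibrillar genes, the 3 of type I collagen, the main fibril of skin and bone, all had their lowest mutant in replicate 2. Expression of col1a1a was 3712, 1409, 3158 and 3364 CPM in mutant replicates 1 to 4 and 3640, 4007, 3636 and 3888 CPM in wild types. Mutant replicate 2 stood far below every other library, at 41.3% of the mean of the other 3 mutants, and mutant replicate 1 lay within the wild-type range. The log2 fold change was -0.38 (SE 0.25, adjusted p = 0.358) with all libraries and -0.15 (adjusted p = 0.422) without mutant replicate 2. The gene col1a1b, a second alpha1 chain, was at 2121, 1040, 1975 and 1785 against 2453, 2304, 2448 and 2596 CPM. The alpha2 chain gene col1a2 was at 1785, 897, 1659 and 1529 against 1829, 2007, 1806 and 1984 CPM. For both, all mutants lay below all wild types, yet neither passed by edgeR, with adjusted p of 0.123 for col1a1b (log2 fold change -0.50) and 0.223 for col1a2 (-0.38). The DESeq2 Wald test, which called 2105 of all 23680 genes tested lower, called col1a1b lower.

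The type V chain genes, which nucleate type I fibrils, also had their lowest mutant in replicate 2 for col5a1, COL5A2, col5a2b and col5a3b. The largest difference was that of col5a3b, at 197, 101, 233 and 107 CPM in mutants and 261, 184, 305 and 250 CPM in wild types (log2 fold change -0.65, SE 0.29, adjusted p = 0.176), and mutant replicates 1 and 3 lay within the wild-type range. Of the type II genes, which encode the main fibril of cartilage and notochord sheath, col2a1a was at 1993, 2455, 2282 and 2059 against 2165.9, 2685, 2171 and 2521 CPM (adjusted p = 0.551). The paralog col2a1b was at 707, 600.2, 738 and 615 against 786, 798, 814 and 885 CPM, without overlap and without passing by edgeR (log2 fold change -0.30, SE 0.10, adjusted p = 0.0754). DESeq2 called col2a1b lower. Among the 16 fibrillar genes, edgeR had 4 lower and 2 higher at an unadjusted p under 0.05. The share of all genes tested at that unadjusted threshold was not counted, here or for the other classes and lists. It is at least the 14.3% called after adjustment, so such counts do not set these genes apart. After adjustment DESeq2 had 3 lower and limma voom 1, with 2 higher by each.

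Types II, IX and XI, the chains of the cartilage fibril, were grouped after their values were seen. In mutant replicate 2, 6 of these 10 genes lay above the mean of the other 3 mutants and 4 below it, against 10 above among the other 50 collagens. Mutant replicate 2 was the lowest mutant for 3 of the 10, a share near the 28.8% of all genes tested. Their median log2 ratio of that library to the other mutants was 0.22, against -0.54 for the other 50. The type IX chain gene col9a1a was at 277 CPM there and at 212, 270.1 and 231 CPM in mutant replicates 1, 3 and 4. The 4 below were col11a1a at 90.9%, col2a1b at 87.4% and col11a1b at 74.2% of the mean of the other mutants, and COL9A2 (ENSDARG00000105274), which lay at 40.6 CPM in mutant replicate 2 and 258, 240, and 291 CPM in mutant replicates 1, 3 and 4, with wild types at 195, 286, 209 and 218 CPM. The entry col9a2 (ENSDARG00000024492) was instead highest in mutant replicate 2, at 453 CPM against 341, 410.1 and 361 CPM in the other mutants.

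Among the 13 FACIT genes, the first col19a1 entry was the only call by edgeR, and the other 12 had adjusted p of at least 0.0786. The type XII gene col12a1a, which encodes a chain on the surface of type I fibrils, was at 549, 385, 578 and 556 CPM in mutants and 465, 450, 457 and 443 CPM in wild types. Mutant replicate 2 lay below all wild types and the other 3 mutants above them, and without that library the gene was called higher (log2 fold change 0.31, adjusted p = 0.0414; 0.19 and 0.369 with all libraries, by edgeR). COL21A1 behaved in the same way, at 9.68, 4.14, 9.01 and 9.24 CPM in mutants and 6.61, 5.49, 6.02 and 5.85 CPM in wild types. Its log2 fold change was 0.42 (adjusted p = 0.274) with all libraries and 0.64 (adjusted p = 0.00663) without mutant replicate 2. That library was singled out for its low collagen values, these genes among them. Calls of col12a1a and COL21A1 without it are therefore no independent test. The type XIV and XVI chain genes COL14A1 (-0.40) and col16a1 (-0.36) did not pass, with adjusted p of 0.201 and 0.188.

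The 6 type IV genes of the basement membrane network did not pass, with log2 fold changes from -0.45 to 0.023. At an unadjusted p under 0.05, edgeR had 1 of them lower, and after adjustment DESeq2 had 1 lower and limma voom 0; all had 0 higher. The chain gene col4a5 was at 407, 300.5, 524 and 345 CPM in mutants and 561, 455, 570.5 and 561 CPM in wild types (log2 fold change -0.45, SE 0.17, adjusted p = 0.108), so that mutant replicate 3 overlapped the wild types. Without that library it was called lower (-0.61, adjusted p = 0.0243). The 8 genes of the beaded filament and related class did not pass either. At an unadjusted p under 0.05, edgeR had 1 lower and 0 higher, while after adjustment both DESeq2 and limma voom had 0. The type VI chain gene col6a1 was at 148 ± 34.2 against 178 ± 15.2 CPM (SD, n = 4 each, log2 fold change -0.27, SE 0.16, adjusted p = 0.301).

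The collagens that hold the epidermis to the dermis varied widely between libraries, and not only between mutants. For col7a1 the SD was 18.5 CPM in mutants and 18.6 CPM in wild types, and for col17a1b 5.86 and 11.1 CPM. It was wider in mutants for col17a1a (120 and 61.4 CPM) and col7a1l (ENSDARG00000069692, 19.1 and 5.30 CPM). The hemidesmosome gene col17a1a was at 351, 129, 404 and 264 CPM in mutants and 486, 399, 527 and 532 CPM in wild types. Mutant replicate 3 lay just above the lowest wild type and mutant replicate 2 far below all others (log2 fold change -0.76, SE 0.30, adjusted p = 0.137). The anchoring fibril gene col7a1 was at 51.9, 22.3, 61.3 and 29.2 CPM in mutants and 75.5, 42.6, 81.0 and 81.5 CPM in wild types, with mutant replicates 1 and 3 above the lowest wild type (log2 fold change -0.77, SE 0.35, adjusted p = 0.188). The related col7a1l (ENSDARG00000069692) was at 60.8, 22.3, 63.3 and 41.8 CPM in mutants and 29.97, 37.1, 40.4 and 41.9 CPM in wild types. Mutant replicates 1 and 3 lay above the wild types and mutant replicate 2 below them (log2 fold change 0.33, adjusted p = 0.504). COL13A1, a transmembrane collagen of cell contacts, was lower in every mutant, at 11.02, 8.43, 12.5 and 9.77 against 14.4, 12.5, 15.7 and 14.02 CPM, and came closest to the threshold without passing (log2 fold change -0.44, SE 0.13, adjusted p = 0.0517). The 5 short-chain network genes did not pass and had adjusted p of at least 0.401. Among them COL10A1 (ENSDARG00000054753), a marker of mature cartilage and early bone, was at 383 ± 35.3 against 361 ± 41.8 CPM (SD, n = 4 each). The 5 transmembrane genes included 3 that edgeR put lower at an unadjusted p under 0.05, 2 that DESeq2 called lower and 1 that limma voom called lower, with 0 higher throughout. The unadjusted count has no share of all genes beside it and is a description only. For the anchoring fibril and short-chain classes these counts were 0 in both directions.

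Markers of the tissues that make collagen moved in mutant replicate 2 too, as did those of muscle and endothelium. Their part in the collagen levels was not tested. A summed CPM is led by the most abundant genes of its list and, like the collagen sum, rests on scaling factors that differed between the genotypes. The 14 basal epidermis and fin fold genes summed to between 2317 and 4502 CPM in mutants and between 5195 and 7524 CPM in wild types, with 2317 CPM in mutant replicate 2. One of them, the basal keratin gene krt5, fell (log2 fold change -1.07, adjusted p = 0.00716) and the fin fold matrix gene hmcn1 rose (0.67, adjusted p = 0.0165), while 12 did not pass. Among those 12, and1, and2 and and3 were in mutant replicate 2 at 15.3%, 15.8% and 17.9% of the mean of the other 3 mutants. In that library 1 of the 14 genes lay above the mean of the other 3 mutants. The 18 fibroblast and tenocyte genes summed to between 683 and 1206 CPM in mutants, again lowest in mutant replicate 2, and between 1261 and 1316 CPM in wild types. Their median log2 fold change was -0.0026, with 9 of 18 below 0, and the largest part of the summed difference was postnb (445 against 626 CPM), which did not pass (adjusted p = 0.196). In that list TNMD (-0.71, adjusted p = 0.0121), pdgfrl (-0.57), fmoda (-0.61) and egr1 (-0.52, with overlapping genotypes) fell and 14 did not pass. The 14 chondrocyte genes summed to between 1122 and 1258 CPM in mutants, highest in mutant replicate 2, and between 1222 and 1381 CPM in wild types. The cartilage matrix genes ucmaa (-0.76) and ucmab (-0.67) fell and 12 did not pass. The 9 osteoblast genes summed to between 122 and 141 CPM in mutants and 135 and 141 CPM in wild types, with bglapl (-1.23) lower. The 7 notochord genes summed to between 216 and 261 CPM in mutants and 220.0 and 268 CPM in wild types, and 7 did not pass. Nearly all of that sum was epyc (121 CPM in mutants), which is also in the chondrocyte list, CAV1 (57.6 CPM) and cav3 (56.3 CPM), so it says little of notochord. The notochord genes tbxta, noto and cmn had means of 0.462, 0.130 and 2.26 CPM in mutants and 1.09, 0.120 and 8.57 CPM in wild types. For tbxta and cmn the wild-type mean was led by wild type replicate 1, at 3.804 and 26.5 CPM. The other wild types were at most at 0.279 and 2.92 CPM. Their mutant means were led by mutant replicate 2, at 1.405 and 5.63 CPM. Neither gene passed by edgeR (adjusted p of 0.583 for tbxta and 0.282 for cmn). Errors were wide, with log2 fold changes of -1.25 (SE 1.32) for tbxta and -1.93 (SE 1.07) for cmn, so these means cannot show whether notochord markers changed. For this notochord list edgeR had 1 gene higher and 0 lower before adjustment (p under 0.05), with 1 higher by DESeq2 and 0 by limma voom. The 13 skeletal muscle genes summed to between 41979 and 53753 CPM in mutants and between 64729 and 83418 CPM in wild types, with mylz3 (-0.76), actc1b (-0.69) and tnni2a.4 (-0.58) lower. Mutant replicate 2 had the lowest muscle sum and was the lowest mutant for 11 of the 13 genes. The 11 endothelial genes summed to between 291 and 350 CPM in mutants and 233 and 262 CPM in wild types, with EGFL7 (3.06), tek (0.84) and cdh5 (0.33) higher. The largest part of that difference was EGFL7 (59.0 against 7.09 CPM). The other 8 did not pass, with log2 fold changes from -0.075 to 0.33. Mutant replicate 2 had the highest endothelial sum, and 10 of the 11 genes lay above the mean of the other 3 mutants there. Of all genes tested, 9.12% were called higher and 5.16% lower. Of the endothelial list 27.3% were higher. Lower were 23.1% of the muscle, 22.2% of the fibroblast and tenocyte, 14.3% of the chondrocyte and 12.5% of the tested osteoblast genes. The epidermis and fin fold list had 7.14% in each direction. In lists this small, a single gene moves a share by several points. No matched marker was at 0 in all libraries. The marker calls of egr1, actc1b, ucmab, hmcn1 and cdh5 were kept in 3, 4, 6, 7 and 1 of the 8 fits that left out 1 library.

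Some enzymes and chaperones that prepare collagen chains rose, while most of them, like most of the chains, did not pass. Of 24 measured collagen modification and folding genes, 7 were higher, 0 lower and 17 did not pass, with 9.12% of all genes tested called higher. This list, like the others, was chosen with earlier results of these data known. At an unadjusted p under 0.05, edgeR had 2 lower, while after adjustment DESeq2 had 2 and limma voom 0. Over the 24 genes the median log2 fold change was 0.19, beside -0.0074 for all genes tested. The largest rise was that of serpinh1b, which encodes the procollagen chaperone Hsp47, at 61.7, 49.3, 70.2 and 76.9 CPM in mutants and 13.4, 12.5, 13.2 and 9.27 CPM in wild types. The lowest mutant was well above the highest wild type (5.34-fold, log2 fold change 2.42, SE 0.16, adjusted p = 1.61e-05).

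The catalytic prolyl 4-hydroxylase subunit gene p4ha1b was at 13.9, 14.7, 13.8 and 16.6 CPM in mutants and 7.42, 6.87, 6.65 and 5.66 CPM in wild types. Every mutant was above every wild type (log2 fold change 1.15, SE 0.11, adjusted p = 1.74e-04). The lysyl hydroxylase gene plod3 was at 64.1, 60.5, 72.6 and 70.5 against 46.3, 50.9, 39.4 and 42.4 CPM (0.58, SE 0.098, adjusted p = 0.00427). Its relative plod2, which hydroxylates the ends of fibrillar chains for crosslinking, was at 25.7, 27.3, 30.7 and 25.6 against 22.5, 14.2, 15.9 and 17.2 CPM (0.65, SE 0.14, adjusted p = 0.0149). These 4 calls were kept without any 1 library. Named after their values were seen, the prolyl 3-hydroxylase genes p3h2 (0.72) and p3h3 (0.62) and p4ha1a (0.33) rose, with calls kept in 5, 3 and 2 of the 8 fits that left out 1 library. The number of genes higher in the list was 4 without wild type replicate 3 or 4. In those fits 1435 and 1479 of all genes tested were higher, against 2159 with all libraries.

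**Figure D4:**
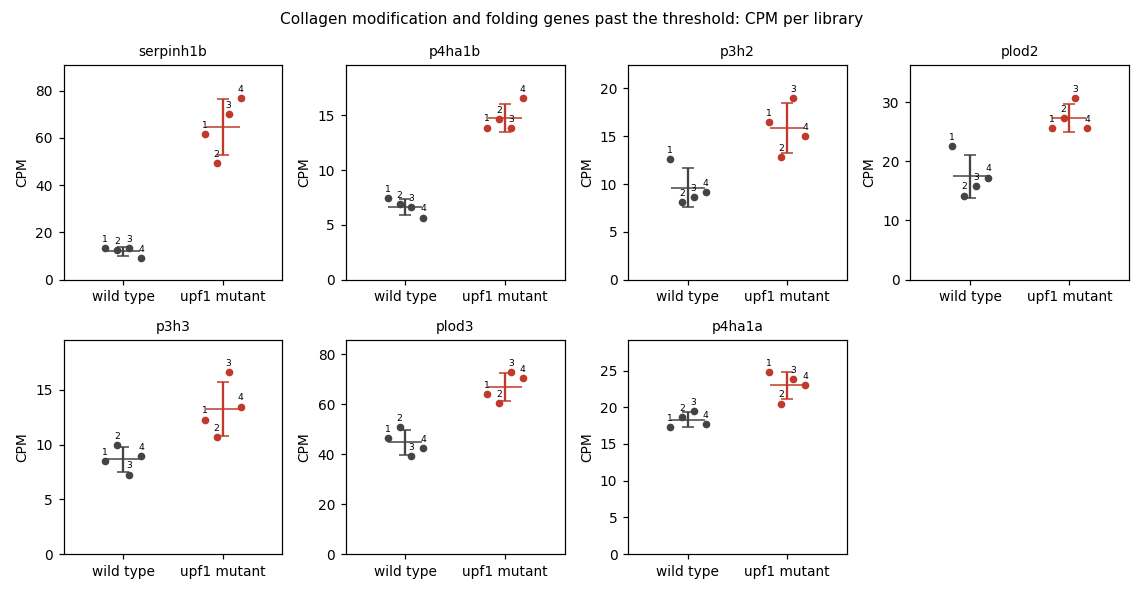
CPM per library (points, with the replicate number) with mean and SD (n = 4) of the 7 collagen modification and folding genes past the threshold. All 4 mutants lie above all 4 wild types in each panel, and serpinh1b has the widest gap.

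Of 26 genes for procollagen export from the cell, cleavage and crosslinking, 2 were higher, 2 lower and 22 did not pass. That is 7.69% in each direction, near the 9.12% higher and 5.16% lower of all genes tested. The procollagen C-proteinase enhancer genes split, with pcolce2a higher (5.22 ± 0.386 against 2.22 ± 0.432 CPM, SD, n = 4 each, log2 fold change 1.23, adjusted p = 0.00091) and pcolcea lower (26.5 ± 3.30 against 35.9 ± 3.58 CPM, -0.44, adjusted p = 0.0276). The lysyl oxidase gene loxl3b (0.32, adjusted p = 0.0385) was higher and the COPII coat gene sec23b (-0.56, adjusted p = 0.0433) lower. The calls of pcolcea, loxl3b and sec23b were kept in 2, 1 and 2 of 8 fits that left out 1 library, and the list then had 1 or 2 genes higher and 0 or 1 lower. The fits without mutant replicate 1 or 3, or without any single wild type, had 1 higher, and those without mutant replicate 1, 2 or 4 or wild type replicate 4 had 0 lower.

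Of 33 collagen receptor and fibril-associated genes, 2 were higher (6.06%), 3 lower (9.09%) and 28 did not pass, again near the shares of all genes tested. The collagen receptor kinase gene ddr2b was at 34.3, 42.1, 37.2 and 37.8 CPM in mutants and 12.2, 12.9, 11.7 and 11.9 CPM in wild types, with a wide gap between genotypes (log2 fold change 1.63, SE 0.085, adjusted p = 3.18e-06). The fibril proteoglycan gene bgnb (biglycan) was higher (0.62, adjusted p = 0.00255), and the fibril proteoglycan genes LUM (lumican, -0.75, adjusted p = 0.0170) and fmoda (fibromodulin, -0.61, adjusted p = 0.0176) were lower. The third lower gene was the integrin beta1 family gene itgb1b.2 (-1.17), named after its values were seen, and its call was kept in 3 of 8 fits that left out 1 library. Without mutant replicate 3, 5 genes of the list were lower.

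Of 20 basement membrane partners, the nidogen gene nid1a was lower (110 ± 21.4 against 182 ± 17.1 CPM, SD, n = 4 each, log2 fold change -0.72, adjusted p = 0.00995), 0 were higher and 19 did not pass. The share lower was 5%, near the 5.16% of all genes tested. At an unadjusted p under 0.05, edgeR had 3 higher, and after adjustment both DESeq2 and limma voom had 0. Without mutant replicate 2 or 4, edgeR called 1 and 2 of these genes higher. Of 15 collagen degradation genes, mmp25a, a membrane-bound metalloproteinase gene, was higher (0.675 ± 0.148 against 0.197 ± 0.0377 CPM, SD, n = 4 each, adjusted p = 0.00421), 0 were lower and 14 did not pass. The share higher was 6.67%, against 9.12% of all genes tested. At an unadjusted p under 0.05, edgeR had 0 lower, as had DESeq2 and limma voom after adjustment, and 3 were higher without wild type replicate 1 and 2 without mutant replicate 2.

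Alternative splicing of collagens was read from the authors' deposited tables of 5 event classes. The headers do not say which genotype is the first of the 2 groups, so differences are given without direction and the groups are called first and second. The tables held 260 events in 45 of the 60 collagens, of which 14 events in 10 genes passed the deposited FDR of 0.05 (5.38%). Of all 37768 deposited events, 8.84% passed, so collagen events were called at a lower share. Besides skipped exons, the calls were 3 of 36 mutually exclusive exon pairs (7.35% of all such events passed), 1 of 11 alternative 3′ sites (10.2%) and 1 of 4 alternative 5′ sites (12.7%), with 0 retained introns listed in collagens. The other 15 collagens had no event in the tables. Of the 9 called skipped exons in collagens (4.31% of 209 events, against 8.79% of all skipped-exon events), 8 had a length that is a multiple of 3 bases. The deposited inclusion levels, from 0 to 1, did not overlap between the groups for 6 of the 14 events, against 58.9% of all events past the threshold.

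Cassette exons of collagens often had lengths that encode whole glycine-X-Y repeats, at 9 bases per repeat. Of 183 distinct cassette exons in the skipped-exon table, 150 (82.0%) were a multiple of 3 bases and 99 (54.1%) a multiple of 9. Over all 27975 cassette exons in the table, 39.6% were a multiple of 3 and 13.4% a multiple of 9. Exactly 54 bases long were 42 collagen exons (22.95%) and 0.847% of all exons, and 12 collagen exons were 45 bases long. The exons of 1 gene share their history and events can share exons, so this is a description without a test.

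**Figure D5:**
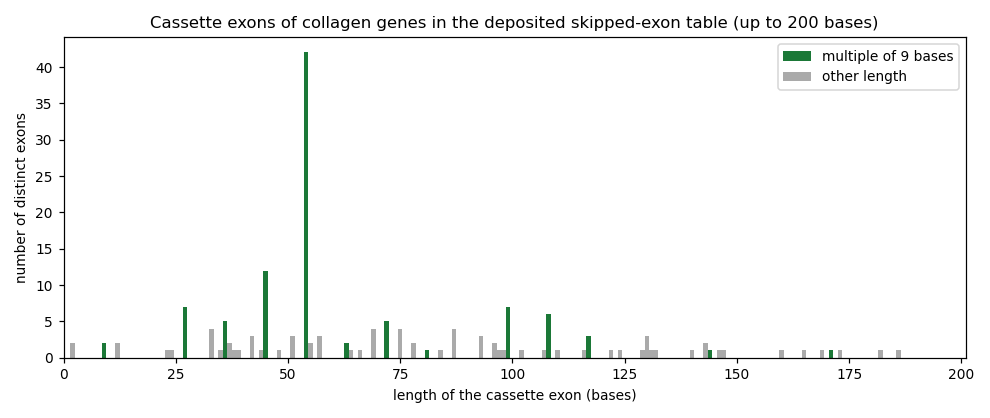
Number of distinct collagen cassette exons of each length up to 200 bases in the deposited skipped-exon table, with multiples of 9 bases in green. The tallest bar is at 54 bases, with 42 exons, and 14 exons longer than 200 bases are not drawn.

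Among collagen events in the authors' deposited tables, the smallest FDR belonged to a 35-base exon of col15a1b (GRCz10 chromosome 2, 24310144 to 24310178, minus strand; FDR 4.65e-10), the only called cassette exon of a collagen whose length is not a multiple of 3. Its inclusion level was 0.864, 0.929, 0.86 and 0.733 in the first group and 1 in all 4 libraries of the second. Skipping was seen in every library of the first group and in none of the second, with 30 and 0 skipping reads, beside 257 and 297 inclusion reads. On the scale of the inclusion level, which weighs reads by the length of each form, 0 skipping reads allow a skipped share of up to 1.45% by counting error. A second exon of col15a1b (chromosome 2, 24291244 to 24291342, 99 bases) had 23 and 0 skipping reads and inclusion levels of 0.96, 0.961, 0.975 and 0.935 against 1 throughout (FDR 1.45e-04). This is the same gene whose level was lower in mutants.

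A 93-base exon of the type IV chain gene col4a6 (chromosome 7, 50686135 to 50686227) was included at 0.27, 0.242, 0.256 and 0.188 in the first group and 0.212, 0.154, 0.095 and 0.077 in the second, per the authors' deposited table. The groups overlapped by 1 library (FDR 4.89e-06), and the same exon was in a called pair of mutually exclusive exons (FDR 0.0186). An 87-base exon of col11a1a (chromosome 24, 28775239 to 28775325) had inclusion levels of 0.899, 0.895, 0.945 and 0.799 against 0.999, 0.991, 0.905 and 0.825 (FDR 3.87e-05). The 4 values of the second group fell apart, with 2 near full inclusion and 2 within the range of the first group.

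A 129-base exon of col11a2 (chromosome 19, 7285459 to 7285587) had inclusion levels of 0.345, 0.323, 0.37 and 0.308 in the first group and 0.447, 0.437, 0.452 and 0.435 in the second, per the authors' deposited table (FDR 6.91e-04). The groups did not overlap, with an absolute difference of 0.106 and about 297 junction reads per library. This exon also took part in both called mutually exclusive pairs of col11a2 (FDR 0.00623 and 0.0216). The gene's level was 384 ± 66.7 CPM in mutants and 421 ± 27.03 CPM in wild types and did not pass (adjusted p = 0.545). A 48-base exon of col17a1b (chromosome 13, 24624599 to 24624646) differed by 0.048 in inclusion level with overlap (FDR 0.00260).

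An alternative 3′ splice site that adds 33 bases to an exon of COL14A1 (chromosome 19, 60782 to 61377) was used at 0.268, 0.253, 0.08 and 0.286 in the first group and 0.29, 0.376, 0.288 and 0.307 in the second (deposited FDR 0.0119), barely without overlap. An alternative 5′ splice site of COL28A1 (ENSDARG00000087087, chromosome 16, 47386327 to 47386376) that adds 5 bases had the largest difference, 0.469, but only 6.63 junction reads per library (FDR 3.96e-04). The remaining called exons, of col16a1, COL18A1 and COL13A1, had deposited FDR values from 0.0257 to 0.0476 and overlapping groups. Among the 6 collagens called for expression, col11a1a, col15a1b and COL18A1 also had a called event, which is 50% of those 6 genes and 30% of the 10 genes with a called event. Counting only genes listed in the splicing tables, 3 of 5 collagens called for expression and 7 of 40 others (17.5%) had a called event. Over all tested genes in those tables, the shares were 30.3% of 2184 called for expression and 16.8% of 10226 others. With 5 genes, no link between the calls in collagens can be read from this.

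The ceramide transfer genes matched by their letters did not pass for expression. They were at 14.7 ± 2.697 against 15.7 ± 0.702 CPM for col4a3bpa and 29.9 ± 3.20 against 34.7 ± 3.04 CPM for col4a3bpb (SD, n = 4 each). A 78-base exon of col4a3bpa (chromosome 5, 50311953 to 50312030) differed in inclusion by 0.16 without overlap, per the authors' deposited table (FDR 8.00e-04).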

How the data were processed

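PolyA RNA of whole larvae was sequenced from stranded libraries, per the labels. The deposited table holds raw counts per gene, and the submitters' processing notes name GRCz10, TopHat2 2.0.13, STAR 2.5.2b, featureCounts, Salmon 0.7.2, sleuth 0.28.1 and SAMtools 1.3.1 without their roles. The sources used here name no annotation release or strand setting and do not tie an aligner to the counts. Antisense and overlapping genes therefore cannot be told apart. The authors' deposited splicing tables hold p-values and FDR values per event in the rMATS column layout. The transcript table was not used here. Symbols came from the splicing tables for 12446 genes and from a gene name table for 14122, leaving 5385 unnamed. The test was that of edgeR 4.0.16 in R 4.3.3 on the deposited counts (robust quasi-likelihood fit, TMM scaling, filterByExpr with minimum count 10 and total 15) over all genes, and CPM used the same scaling. The bound on a skipped share covers counting error only, while each SD and SE includes variation between libraries. Structural classes followed collagen type numbers. The members, the 13 gene lists and the rule for named genes were chosen with earlier results of these data known. The rule took upf1, the collagens past the threshold, the collagen with the highest CPM per class, up to 4 genes per list by adjusted p and up to 10 splicing events by FDR. Other collagens were named after their values were seen. List symbols matching no gene or several were left out. The test was checked on simulated data. It recovered 14.9% of 1.5-fold, 55.2% of 2-fold and 72.7% of 4-fold changes, with 7 false calls among 102. These changes were placed in 67, 67 and 66 of 23394 genes, a smaller share than the 14.3% called in the data. Recovery with a larger share changed was not tested. At 1 CPM or more, where all collagen means lay (lowest 1.49 CPM), recovery was 17.9%, 64.9% and 93.8%. A gene that did not pass may therefore still differ. Alternatives were other scalings and filters, DESeq2 1.42.0, limma 3.58.1 voom, a block for the replicate number, fits without each library and stricter splicing thresholds. Over all 23680 genes tested, same-numbered mutants and wild types did not deviate together, so the numbers were not taken as pairs. Among collagens, however, replicate 2 was the lowest library in both genotypes, for 39 of 60 genes in mutants and 34 of 60 in wild types. Python 3.11.15 with pandas 2.3.3 and matplotlib 3.10.9 made the other tables and the plots.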

Additional observations from a re-analysis of the deposited data

Results flagged for a closer look

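Among the collagens, 1 value lay far from the other 3 of its genotype in 11 of 120 gene and genotype groups, by Dixon's criterion; these values came from 4 libraries, and chance flags about 1 in 20 such groups. In 7 of the 11 the library was wild type replicate 2, always the lowest. It held col7a1 at 42.6 CPM (others 75.5 to 81.5), COL4A4 at 4.37 (8.49 to 8.62), col4a5 at 455 (561 to 570.5), col4a6 at 193 (259 to 266), COL28A1 (ENSDARG00000087087) at 1.12 (3.78 to 4.28), col28a2b at 7.17 (9.43 to 9.83) and col11a1b at 304 CPM (320.4 to 324). Mutant replicate 2 was the lowest for col12a1a at 385 CPM (others 549 to 578) and COL21A1 at 4.14 CPM (9.01 to 9.68). The highest libraries were wild type replicate 1 for col9a1b, at 47.8 CPM (18.4 to 20.6), and mutant replicate 3 for col5a2b, at 30.4 CPM (22.6 to 23.5). Among the named genes of other lists, krt5 was at 1195 CPM in mutant replicate 2 (1817 to 1943), and actc1b at 10023 CPM in mutant replicate 2 (14315 to 14824) and at 27535 CPM in wild type replicate 2 (19497 to 19884). The osteoblast gene bglapl was at 0.756 CPM in wild type replicate 4 (0.605 to 0.629).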

How the results depend on the processing

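The calls of col27a1a, col27a1b and col19a1 (ENSDARG00000076163) were kept under every alternative run, and the median log2 fold change of collagens lay between -0.28 and -0.11 when 1 library was left out. Leaving out 1 library gave 2 to 4 collagens higher (4 without mutant replicate 2) and 1 to 6 lower, of which 1 was left in each fit without mutant replicate 1 or 4 or without wild type replicate 1, 3 or 4, and 6 without mutant replicate 3. Calls over all genes tested fell in these fits too. With all libraries 1223 genes were lower, against 678 and 989 without mutant replicate 1 or 4. Without wild type replicate 1, 3 or 4 it was 812, 683 and 675, and without mutant replicate 3 it was 849. The DESeq2 Wald test called 10 of 60 collagens lower, beside 2105 of 23680 genes tested. The log2 fold change of col18a1 (ENSDARG00000036558) turned from -0.067 to 0.068 without mutant replicate 2, with no call in either fit, and its lowest value was -0.18 without mutant replicate 3. Without 1 library, 4 to 9 folding genes were higher and 0 to 1 lower, 1 to 2 secretion and crosslinking genes higher and 0 to 1 lower, 1 to 3 degradation genes higher, 2 to 5 receptor and fibril-associated genes lower and 0 to 2 basement membrane partners higher. DESeq2 called 2 folding genes lower, 4 secretion genes higher, 2 degradation genes higher, 6 receptor genes lower and 2 basement membrane partners lower. A CPM of 1 in 4 libraries left 0 degradation genes higher, since mmp25a was then not tested. With the replicate block, 2 collagens were higher and 6 lower. The 6 were both col19a1 entries, col7a1, col5a3b, COL18A1 and COL13A1, so the calls of col11a1a and col15a1b were lost. In that fit the secretion list had 1 higher and 0 lower, the receptor list 0 lower and the basement membrane list 2 lower. Of all genes, 1379 were then higher and 666 lower. The correlation of deviations of same-numbered libraries, over all 23680 genes tested, lay between -0.067 and 0.034. An FDR of 0.01 left 8 collagen splicing events and an inclusion difference of at least 0.1 left 4. The cause of these shifts was not tested. Collagens that scattered between libraries had wide errors. Examples were COL10A1 (ENSDARG00000101535, SE 0.80), at 0.534 to 4.32 CPM in mutants, and COL9A2 (ENSDARG00000105274, SE 0.51), at 40.6 to 291 CPM in mutants.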
